A study of Mus musculus with 12 samples.

Results

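The spindle assembly checkpoint genes described here are Mad2l1, Mad1l1, Bub1, Bub1b, Bub3, Ttk, Zwint and Ndc80. They were chosen by name as the core of the checkpoint and its docking site, matched by symbol to their Ensembl gene identifiers in the GENCODE mouse M21 annotation of GRCm38, and all 8 of 8 were found among the 55573 genes counted in each of the 12 libraries. All 8 are annotated as protein-coding and all 8 passed the filter on low counts in every fit.

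The checkpoint holds a dividing cell before anaphase until its kinetochores, the protein assemblies on each centromere, have attached to spindle microtubules. The kinase TTK (also called MPS1) recruits BUB1, BUB3 and BUBR1, the product of Bub1b, to unattached kinetochores, where a MAD1 scaffold converts MAD2 into the form that joins BUBR1, BUB3 and CDC20 in an inhibitor of the anaphase-promoting complex. Fully grown oocytes at the germinal vesicle (GV) stage are arrested in prophase of the first meiotic division, and the transcripts they store supply the checkpoint for the divisions that follow, in which it is known for guarding against chromosome segregation errors.

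The data are poly(A) RNA-seq counts from single GV oocytes of a B6D2F1 female mouse aged 12 weeks, kept in M2 medium with milrinone, an inhibitor that maintains the arrest, with no genetic change and no treatment that differs between groups. There are 6 groups of 2 libraries each. Whole oocytes were amplified for 10, 14 or 18 PCR cycles, 1 oocyte per library, while the 6 fraction libraries, amplified for 18 cycles, were diluted from the lysates of only 2 further oocytes and are treated as separate in the main fits. An equal amount of diluted ERCC spike-in, a mix of synthetic RNAs, went into each lysate, and RNA was captured on oligo(dT) beads. According to the paper, the fractions were sequenced to illustrate normalization by that spike-in. The labels and methods state no batch, so the cycle number cannot be told apart from the oocyte or its preparation, and each group rests on 2 libraries.

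Depth differed between groups. The whole oocytes had 11597144 and 9189672 gene counts at 10 cycles, 12349577 and 13806199 at 14, then 3017069 and 1706478 at 18. The fractions had 4024670 and 3598549 in 1/2, 4027907 and 5049518 in 1/4, and 11404262 and 1702062 in 1/8. Counts on the 8 genes together were 31370 and 23811 at 10 cycles, 34987 and 33760 at 14, 2848 and 1966 at 18, 5602 and 5118 in 1/2, 5769 and 7985 in 1/4, then 27784 and 4337 in 1/8. The lowest count of any checkpoint gene in any library was 17, for Mad1l1 in replicate 2 at 18 cycles, so its values there are the least precise. Levels below are CPM, each gene's count scaled to the library's total of gene counts, with replicate 1 before replicate 2.

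Ttk (ENSMUSG00000038379, chr9:83834689-83872389, plus strand) encodes the kinase at the head of the pathway. In whole oocytes its level was 386 and 422 CPM at 10 cycles, 416 and 359 at 14, and 138 and 155 at 18. In the fractions it was 218 and 288 CPM in 1/2, 228 and 240 in 1/4, and 389 and 407 in 1/8. Both whole oocytes at 18 cycles lay below the other 10 libraries, the 1/8 oocytes lay within the range of the whole oocytes at 10 and 14 cycles, and 1/2 and 1/4 lay between without touching either side. Bub1 (ENSMUSG00000027379, chr2:127801122-127831865, minus strand) encodes the kinetochore kinase that TTK activity brings in. Its level in whole oocytes was 175 and 197 CPM at 10 cycles, 190 and 155 at 14, and 79.2 and 50.4 at 18, and in fractions 78.3 and 122 in 1/2, 95.3 and 110 in 1/4, then 138 and 197 in 1/8. The whole oocytes at 18 cycles were again low, but here replicate 1 of 1/2 lay between them, so these groups overlapped.

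Bub1b (ENSMUSG00000040084, chr2:118598211-118641591, plus strand) encodes BUBR1, the subunit that blocks the anaphase-promoting complex. It was measured at 1562 and 1412 CPM in whole oocytes at 10 cycles, 1662 and 1352 at 14, and 448 and 726 at 18. The fractions gave 652 and 636 CPM in 1/2, 786 and 820 in 1/4, and 1289 and 1387 in 1/8. Bub1b had the most counts of the 8 genes in every library, and both 1/2 oocytes lay between the 2 whole oocytes at 18 cycles. Bub3 (ENSMUSG00000066979, chr7:131560222-131571895, plus strand) encodes the WD-repeat partner that carries BUB1 and BUBR1 to the kinetochore. Its whole-oocyte levels were 194 and 179 CPM at 10 cycles, 191 and 186 at 14, and 98.8 and 119 at 18, and its fraction levels 168 and 166 in 1/2, 141 and 166 in 1/4, and 211 and 189 in 1/8. Bub3 had the smallest ratio of highest to lowest level, with 10 libraries between 141 and 211 CPM and only the whole oocytes at 18 cycles below them.

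Mad2l1 (ENSMUSG00000029910, chr6:66535390-66547220, plus strand) encodes MAD2, the protein that changes shape at unattached kinetochores. In whole oocytes it stood at 222 and 195 CPM at 10 cycles, 221 and 233 at 14, and 130 and 63.3 at 18. In fractions it stood at 203 and 157 CPM in 1/2, 110 and 161 in 1/4, and 275 and 249 in 1/8. The 1/8 oocytes were above every whole oocyte, and replicate 1 at 18 cycles lay between the 1/4 oocytes, so those groups overlapped. Mad1l1 (ENSMUSG00000029554, chr5:140008689-140321552, minus strand) encodes the MAD1 scaffold that holds MAD2 at the kinetochore. Its levels were 52.9 and 45.6 CPM at 10 cycles, 47.0 and 49.5 at 14, 24.2 and 9.96 at 18, 28.6 and 23.6 in 1/2, 32.5 and 33.7 in 1/4, then 45.9 and 30.6 in 1/8. The 2 libraries at 18 cycles differed more, as a ratio, than for the other 7 genes, and 1 of the 1/8 oocytes reached the range of the whole oocytes at 10 cycles.

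Zwint (ENSMUSG00000019923, chr10:72654845-72674964, plus strand) encodes a kinetochore protein that links the outer kinetochore to the RZZ complex, and Ndc80 (ENSMUSG00000024056, chr17:71496100-71526857, minus strand) encodes the microtubule-binding subunit that is also a landing site for TTK. Zwint was at 57.6 and 65.4 CPM at 10 cycles, 59.8 and 58.3 at 14, 13.6 and 14.1 at 18, 22.9 and 13.3 in 1/2, 17.9 and 23.0 in 1/4, and 38.6 and 53.5 in 1/8. Ndc80 was at 55.3 and 74.6 CPM at 10 cycles, 46.6 and 53.2 at 14, 12.9 and 14.7 at 18, 20.1 and 15.8 in 1/2, 21.4 and 26.3 in 1/4, and 49.8 and 35.3 in 1/8. Both genes had low levels in all whole oocytes at 18 cycles and in all 1/2 and 1/4 oocytes, with a gap up to the 1/8 oocytes and the other whole oocytes.

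**Figure D1:**
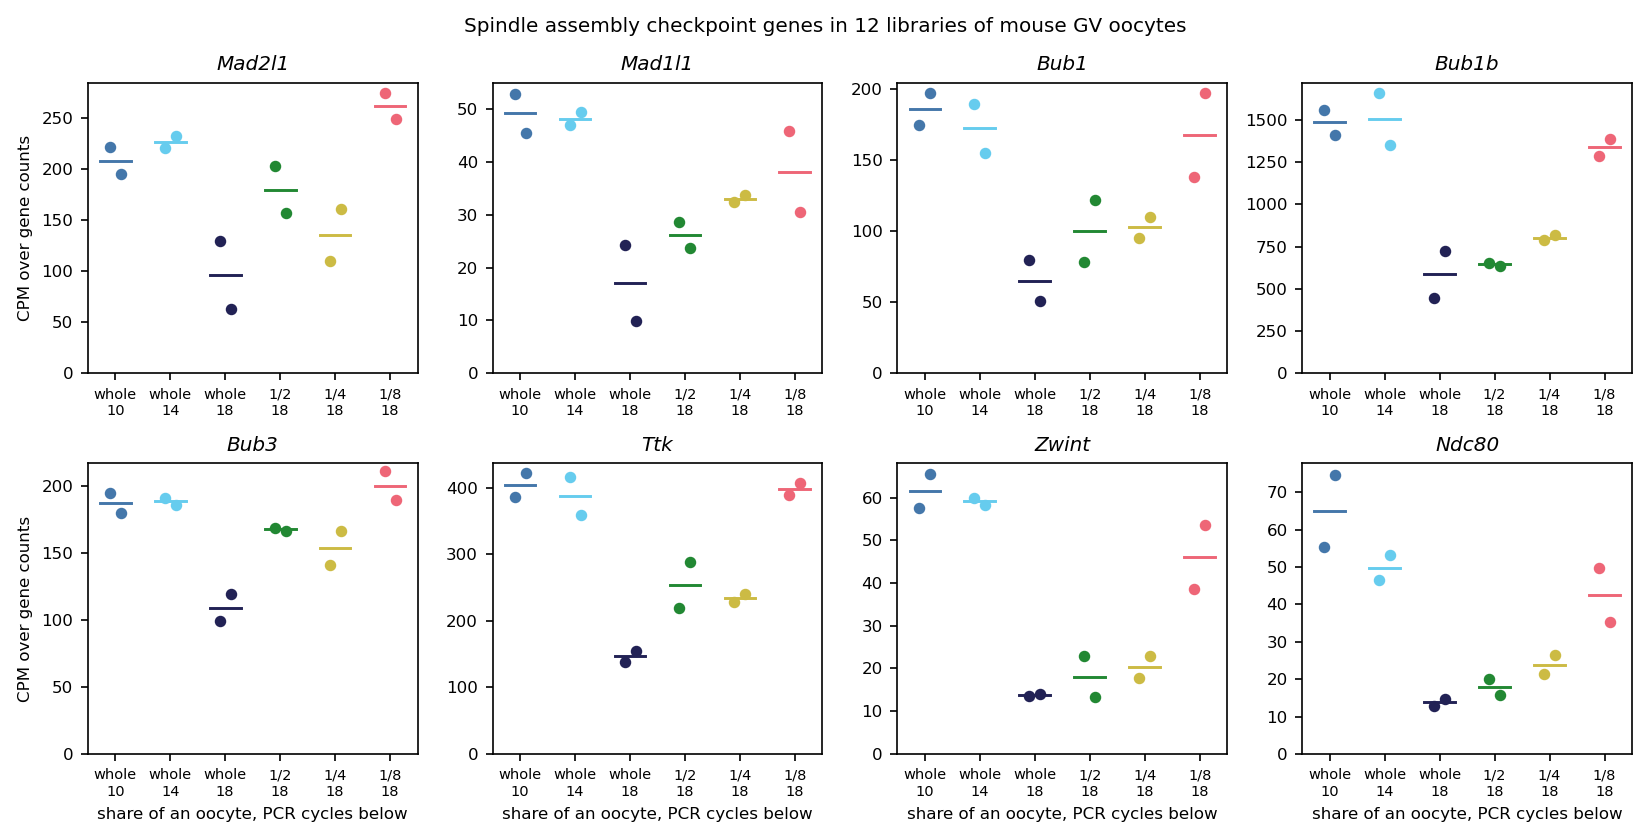
Level of each checkpoint gene in CPM over gene counts (linear axis from 0) in whole oocytes at 10, 14 and 18 PCR cycles and in 1/2, 1/4 and 1/8 oocytes, with points for libraries and bars for the mean of 2. The whole oocytes at 18 cycles have the lowest mean for all 8 genes on this scale, and the mean of the 1/8 oocytes is between 0.655 (Ndc80) and 1.26 (Mad2l1) times that at 10 cycles.

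Ordered by mean CPM, the whole oocytes at 18 cycles came last of the 6 groups for all 8 genes. The top 3 groups were the whole oocytes at 10 and 14 cycles and the 1/8 oocytes, in an order that differed from gene to gene. For Bub1, Bub3 and Ttk the libraries of each neighbouring pair among these 3 groups overlapped. Elsewhere among them, the 1/8 oocytes stood clear above the whole oocytes at 14 cycles for Mad2l1, clear below them for Mad1l1 and Zwint, and clear below the whole oocytes at 10 cycles for Bub1b, while Ndc80 was clear between 10 and 14 cycles. The step down to the next group had no overlap for 6 genes and overlapped for Mad2l1 and Mad1l1. At the bottom of the order, the whole oocytes at 18 cycles were clear of the group above them for Bub3, Ttk and Ndc80 and overlapped it for Mad2l1, Mad1l1, Bub1, Bub1b and Zwint. The share of all genes with such an order was not computed. In single comparisons below, 2 groups did not overlap in a given direction for 14.8% to 49.3% of all genes. The summed level of the 8 genes was 2648 ± 80.5 CPM (SD, n = 2) at 10 cycles, 2639 ± 274 at 14, 1048 ± 147 at 18, 1407 ± 21.4 in 1/2, 1507 ± 105 in 1/4 and 2492 ± 79.1 in 1/8. With every library's counts drawn down to the smallest total, 1702062, each of the 6 sums stayed within 1 SD of its value from all counts. Of the 48 single gene levels, 42 stayed within 1 SD and 6 moved further.

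Levels of different genes were compared as CPM per kilobase of merged exon. At 10 cycles the mean on this scale was 348 for Bub1b, 82.2 for Ttk, 42.7 for Bub1, 26.7 for Bub3, 24.9 for Mad2l1, 13.9 for Zwint, 13.5 for Mad1l1 and 10.0 for Ndc80. Among the 16507 protein-coding genes with counts at 10 cycles, Bub1b was at percentile 99.5, Ttk at 96.8, Bub1 at 92.4 and Ndc80 at 72.5 of CPM per kilobase. Among the 13902 with counts at 18 cycles, the same percentiles were 97.3 for Bub1b, 85.7 for Ttk, 76.1 for Bub1 and 43.5 for Ndc80. Bub1b ranked first and Ttk second among the checkpoint genes in 12 of 12 libraries, with either the merged exon length or the longest coding transcript as the length. The lower ranks depended on the length used: Ndc80 was eighth in 12 of 12 libraries per kilobase of merged exon, and ranked from 5 to 7 per kilobase of its longest coding transcript, a scale chosen after seeing the data.

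Amplification was compared among the 6 whole oocytes in a fit of 17532 genes, by the quasi-likelihood test of edgeR, p adjusted by Benjamini-Hochberg, and size factors by the median ratio over genes. A gene was called when its adjusted p was under 0.01. Between 14 and 10 cycles 0 of 8 checkpoint genes were called by edgeR, as were 0% of all genes higher and 0% lower. At an unadjusted p under 0.05 there were 0 checkpoint genes and 513 of all genes, and DESeq2 called 0 checkpoint genes and, over all genes, 1 higher and 1 lower. Their log2 fold changes ran from -0.42 for Ndc80 to 0.09 for Mad2l1, and their median of -0.08 compares with 0.01 over all genes. Ndc80 was the only checkpoint gene whose libraries did not overlap between 14 and 10 cycles (lower; 14.8% of all genes).

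At 18 against 10 cycles, CPM was lower in both libraries than in both at 10 cycles for 8 of 8 checkpoint genes, against 45.9% of all genes tested. The edgeR test called 4 of 8 lower and 0 higher, where 10.8% of all genes were called lower and 12.3% higher. DESeq2 called 7 of 8 lower (2422 of all 17532 genes lower and 2729 higher). With no filter edgeR called 7 lower (2673 of 28984 genes), and with at least 10 counts in every library 8 (2042 of 9073). The median log2 fold change was -1.21 over the checkpoint genes and -0.29 over all genes. The 4 called were Ndc80, with a log2 fold change of -1.99 (SE 0.29, edgeR adjusted p = 0.000534), Zwint at -1.90 (SE 0.26, adjusted p = 0.000359), Bub1 at -1.26 (SE 0.23, adjusted p = 0.00204) and Ttk at -1.20 (SE 0.21, adjusted p = 0.00163). These directions did not hold with ERCC size factors. There the fitted signs were positive, at 0.20, 0.32, 1.03 and 0.99, and none of the 4 was called. For Ndc80 and Zwint that sign is not settled, since per total ERCC count their folds were 0.92 and 0.99. Not called by edgeR were Mad1l1 at -1.22 (SE 0.32, adjusted p = 0.0123), Bub1b at -1.05 (SE 0.28, adjusted p = 0.0131), Mad2l1 at -0.85 (SE 0.26, adjusted p = 0.0254) and Bub3 at -0.51 (SE 0.21, adjusted p = 0.0805), whose fitted signs change in the same way, to 1.11, 1.08, 1.50 and 1.69. With ERCC size factors the median over all genes moved from -0.29 to 1.96, the median over the checkpoint genes was 1.05, and edgeR called 2 of 8 higher (Mad2l1 and Bub3) and 0 lower, where 8348 of all 17532 genes were called higher and 0 lower. A change of size factors moves all genes of a fit by a similar amount. That the checkpoint genes' median was below that of all genes on either scaling is thus 1 result, not 2. The alternatives other than ERCC size factors kept the direction of all 8. Over those 12, the adjusted p reached at most 0.00745 for Ndc80 and 0.00587 for Zwint, but 0.0236 for Bub1 and 0.0189 for Ttk, and without replicate 2 at 10 cycles only Zwint and Ndc80 were called. Without replicate 1 at 10 cycles Bub1 missed the threshold.

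The comparison of 18 with 14 cycles shares the 18-cycle libraries with that against 10 cycles and is no separate support. CPM was lower without overlap for 8 of 8 checkpoint genes (49.3% of all genes), and edgeR called 4 of 8 lower (10.7% of all genes), again Bub1, Ttk, Zwint and Ndc80, and 0 higher (12.5%). The log2 fold changes of those called were -1.81 for Zwint (adjusted p = 0.000444), -1.57 for Ndc80 (adjusted p = 0.00194), -1.11 for Bub1 (adjusted p = 0.00402) and -1.10 for Ttk (adjusted p = 0.00256). The other genes ran from -1.16 for Mad1l1 to -0.49 for Bub3. DESeq2 called 7 of 8 lower (2401 of all 17532 genes lower and 2754 higher). With no filter edgeR called 7 lower (2710 of 28984 genes), and with at least 10 counts in every library 8 (2011 of 9073). The median was -1.11 over the checkpoint genes and -0.29 over all genes, and all 8 fitted signs were positive with ERCC size factors, where edgeR called 1 of 8 higher (8398 of all 17532 genes) and the medians were 1.15 and 1.97. Without replicate 1 at 14 cycles edgeR called 2 of the 8, and without replicate 2 it called 1. Bub1 also missed the threshold without replicate 1 at 10 cycles or replicate 2 at 18 cycles, and so did Ttk and Ndc80 without replicate 1 at 18 cycles.

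Fractions were set against whole oocytes at 18 cycles in a second fit of 14788 genes from the 8 libraries at that cycle number, first with size factors by the median ratio over genes, which asks whether the composition of the RNA differs. In 1/2 oocytes edgeR called 0 of 8 checkpoint genes (0.0811% of all genes higher and 0.0406% lower). At an unadjusted p under 0.05 there were 3 of 8 and 1943 of all 14788 genes, and DESeq2 called 0 of 8 and, over all genes, 103 higher and 49 lower. The log2 fold changes ran from 0.08 for Bub1b to 0.87 for Mad2l1, with a median of 0.57 against -0.01 over all genes. CPM was higher without overlap for 4 of 8, Mad2l1, Bub3, Ttk and Ndc80 (22.5% of all genes), and lower without overlap for 0 (18.8%). In 1/4 oocytes edgeR called 0 of 8 (0.0338% of all genes higher and 0.426% lower), with 0 at an unadjusted p under 0.05 (2331 of all genes) and 0 by DESeq2 (70 higher and 171 lower). There the log2 fold changes ran from 0.30 for Bub1b to 0.79 for Mad1l1, with a median of 0.48 against 0.05 over all genes, and CPM was higher without overlap for 7 of 8, all but Mad2l1 (32.3% of all genes).

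In 1/8 oocytes CPM was higher than in both whole oocytes at 18 cycles for 8 of 8 checkpoint genes (37.4% of all genes, with 25.6% lower), and edgeR called 4 of 8 higher (7.06% of all genes) and 0 lower (8.69%). The called genes were Zwint, with a log2 fold change of 1.52 (SE 0.42, edgeR adjusted p = 0.00986), Mad2l1 at 1.25 (SE 0.32, adjusted p = 0.00545), Ttk at 1.24 (SE 0.27, adjusted p = 0.00202) and Bub1 at 1.16 (SE 0.32, adjusted p = 0.00906). With ERCC size factors all 4 flip to lower, as given below. Not called by edgeR were Ndc80 at 1.45 (adjusted p = 0.0104), Bub1b at 0.97 (adjusted p = 0.0148), Mad1l1 at 0.96 (adjusted p = 0.0849) and Bub3 at 0.68 (adjusted p = 0.0733). The median was 1.20 over the checkpoint genes and 0.03 over all genes. The calls rest on few libraries: of the 8 fits without 1 library, 2 called 1 gene, 4 called 2 genes, 1 called 3 and 1 called 4, while DESeq2 on all libraries called 6, with 1254 of all 14788 genes higher and 1584 lower. The fits that called 1 gene were those without replicate 1 of the whole oocytes at 18 cycles and without replicate 2 of 1/8. Zwint kept its call only without replicate 2 of 1/2. Bub1 lost its call without any single library of the whole oocytes at 18 cycles or of 1/4, or replicate 2 of 1/8, Mad2l1 without replicate 2 at 18 cycles or any single library of 1/8, and Ttk without replicate 1 at 18 cycles.

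Neighbouring fractions were compared in the same fit. Between 1/4 and 1/2, edgeR called 0 of 8 checkpoint genes and 0% of all genes in either direction. At an unadjusted p under 0.05 there were 0 checkpoint genes and 1842 of all genes, and DESeq2 called 0 checkpoint genes and, over all genes, 15 higher and 11 lower. Their median log2 fold change was 0.00, with values from -0.52 for Mad2l1 to 0.30 for Ndc80, against 0.02 over all genes. Between 1/8 and 1/4, edgeR called 0 of 8 (1.54% of all genes higher and 3.42% lower), with 5 of 8 at an unadjusted p under 0.05 (3985 of all genes) and 0 by DESeq2 (384 higher and 727 lower). The log2 fold changes were all positive, from 0.17 for Mad1l1 to 1.10 for Zwint, with a median of 0.69 against 0.01 over all genes, and CPM was higher without overlap for 7 of 8, all but Mad1l1 (30.6% of all genes, with 27.1% lower).

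**Figure D2:**
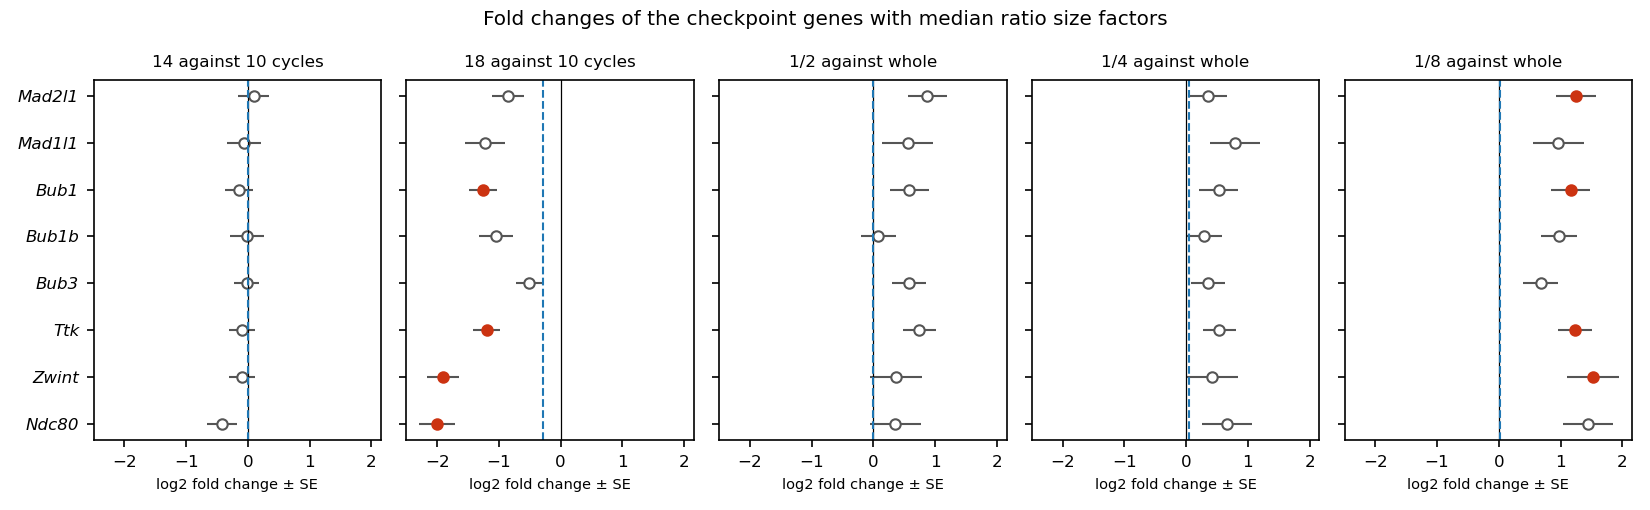
Log2 fold change of each checkpoint gene with its SE (horizontal bars) in 5 comparisons with median ratio size factors, filled points marking an edgeR adjusted p under 0.01 and dashed lines the median of all genes tested; whole oocytes at 18 cycles are the reference in the last 3. At 18 against 10 cycles all 8 genes lie below the median of all genes and in 1/8 against whole all 8 lie above it, while with ERCC size factors the fitted signs of both comparisons flip, not all of them called.

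Counts relative to the spike-in ask how much of each transcript a library held. The ERCC counts were 35852 and 25528 at 10 cycles, 35616 and 39046 at 14, and only 1611 and 1474 at 18, then 9167 and 10467 in 1/2, 18802 and 29075 in 1/4, and 231470 and 36593 in 1/8. Per 1000 ERCC counts, the 8 genes together had 904 ± 40.8 counts (SD, n = 2) at 10 cycles, 923 ± 83.2 at 14, 1551 ± 307 at 18, 550 ± 86.4 in 1/2, 291 ± 22.8 in 1/4 and 119 ± 1.07 in 1/8. The value was lower at each step down in fraction, with no overlap between whole oocytes at 18 cycles, 1/2, 1/4 and 1/8. Relative to whole oocytes at 18 cycles, the checkpoint genes stood at 35.5% in 1/2, 18.7% in 1/4 and 7.69% in 1/8, where the nominal shares are 50%, 25% and 12.5% and all gene counts stood at 25.8%, 12.8% and 3.16%. Relative to whole oocytes at 10 cycles, the checkpoint genes stood at 60.9%, 32.2% and 13.2%, and all gene counts at 114.5%, 56.8% and 14.0%.

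By group means against whole oocytes at 18 cycles, 1/2 oocytes held from 30.1% for Bub1b to 45.3% for Mad2l1, 1/4 oocytes from 16.3% for Mad2l1 to 22.5% for Mad1l1, and 1/8 oocytes from 5.95% for Bub3 to 10.5% for Zwint. Between whole oocytes at 18 and 10 cycles, counts per ERCC count differed by a fold of 0.99 for Zwint and 0.92 for Ndc80, 1.58 for Ttk, 1.62 for Bub1, 1.66 for Bub1b, 1.70 for Mad1l1, 2.22 for Mad2l1 and 2.53 for Bub3, against 4.43 for all gene counts. Whether the genes differ from each other in this ratio was not tested. Bub1b had nearly equal values in both whole oocytes at 18 cycles, 839 and 841 per 1000 ERCC counts, while Mad2l1 had 243 and 73.3, so the replicates there differed gene by gene. For 4 genes 1 library at 18 cycles lay above the mean at 10 cycles and the other below it: Mad1l1 had 45.3 and 11.5 against a mean of 16.8, Bub1 148 and 58.3 against 63.7, Zwint 25.4 and 16.3 against 21.1, and Ndc80 24.2 and 17.0 against 22.4. The direction for these 4 thus rests on which library is taken, and so do the shares of the fractions: Mad2l1 in 1/2 had a mean of 71.6, near 73.3 and far below 243. Whether the genes differ in these shares was not tested.

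**Figure D3:**
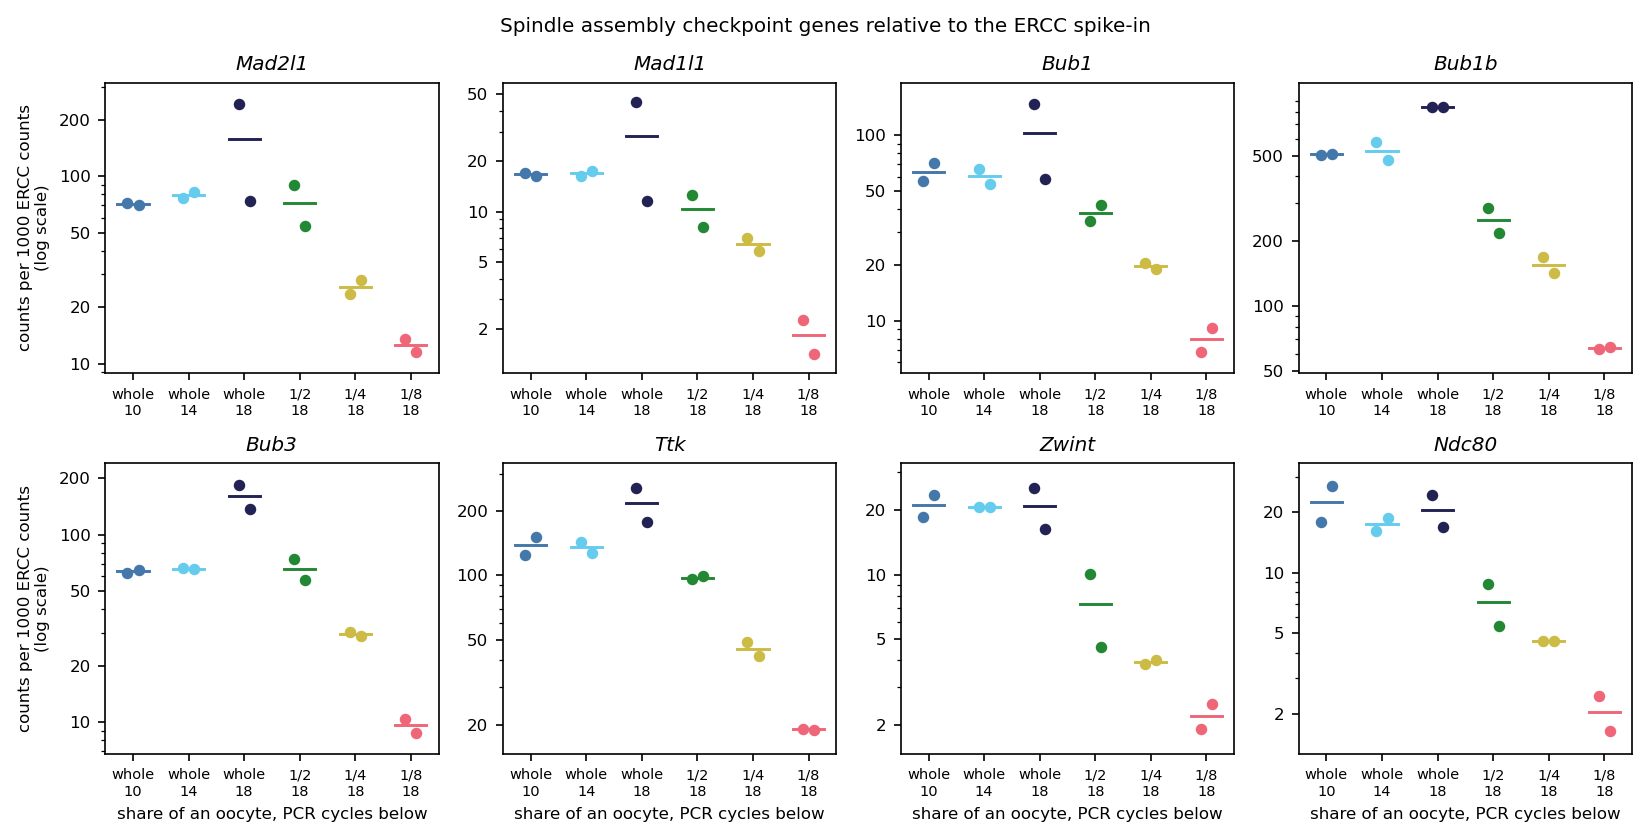
Counts of each checkpoint gene per 1000 ERCC counts (log axis, its range set per gene) in the 6 groups, with points for libraries and bars for the mean of 2. The values step down from 1/2 to 1/4 to 1/8 oocytes for all 8 genes, and the whole oocytes at 18 cycles, which had 1611 and 1474 ERCC counts, scatter most for Mad2l1, Mad1l1 and Bub1.

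With ERCC size factors in the fit of the 8 libraries at 18 cycles, edgeR called 3 of 8 checkpoint genes lower in 1/2 oocytes, where 52.0% of all genes were called lower. They were Bub1b at a log2 fold change of -1.79 (SE 0.46, adjusted p = 0.000824), Bub1 at -1.50 (SE 0.49, adjusted p = 0.00686) and Bub3 at -1.35 (SE 0.46, adjusted p = 0.00956). All 8 had an unadjusted p under 0.05, as did 10455 of all 14788 genes, DESeq2 called 4 of 8 and 7648 of all genes lower, and the median was -1.51 against -2.00 over all genes. Pairing libraries by replicate number, which is not known to pair them, gave 7 of 8 lower (8366 of all 14788 genes). A fit of all 12 libraries gave 8 of 8 (9176 of 18041). With whole oocytes at 10 cycles as its reference it gave 0 of 8 (384 of 18041 lower and 1181 higher), and Bub3 turned to 0.27. In 1/4 oocytes 8 of 8 were called lower (69.7% of all genes), from -2.51 for Mad2l1 to -2.04 for Mad1l1, with a median of -2.30 against -2.69. In 1/8 oocytes 8 of 8 were called lower (87.5% of all genes), from -4.24 for Bub3 to -3.43 for Zwint, with a median of -3.84 against -4.92. In 1/2, 1/4 and 1/8 the checkpoint genes' median was nearer 0 than that of all genes with this reference. These comparisons share the whole oocytes at 18 cycles, and the gap largely restates that with median ratio size factors. They are no separate support. Against whole oocytes at 10 cycles, in a fit of all 12 libraries, the checkpoint genes' median was further from 0. The medians with ERCC size factors there were -0.50 in 1/2, -1.36 in 1/4 and -2.89 in 1/8, against -0.12, -0.81 and -2.82 over all genes. The count in 1/2 turned on single libraries: it was 8 without replicate 2 of the whole oocytes at 18 cycles, 1 without replicate 1, 1 without any single library of 1/4, and 0 without replicate 2 of 1/2. In 1/4 it was 4 without replicate 1 of the whole oocytes at 18 cycles, where Mad2l1, Mad1l1, Bub1 and Ndc80 missed the threshold, and 5 without any single library of 1/4, where Mad1l1, Zwint and Ndc80 did.

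Against the whole oocytes at 10 cycles as the reference, in a fit of all 12 libraries and 18041 genes, the signs differed. For 1/8 oocytes with median ratio size factors, edgeR called 0 of 8 checkpoint genes and 0 of all genes, with 2278 of all genes at an unadjusted p under 0.05, and the median log2 fold change was -0.10 over the checkpoint genes and -0.06 over all genes. For 1/2 oocytes it called 3 of 8 lower, Ndc80 at -1.61, Zwint at -1.52 and Bub1b at -0.97, and over all genes 1678 higher and 1242 lower. For 1/4 oocytes it called 2 of 8 lower, Zwint at -1.48 and Ndc80 at -1.34, and over all genes 1050 higher and 752 lower. Most signs were thus opposite to those against whole oocytes at 18 cycles, though most of these fold changes were not called. In 1/8 they ran only from -0.54 for Ndc80 to 0.39 for Mad2l1, on both sides of 0.

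Base composition moved with the same contrasts. The GC content of the longest coding transcript was 40.1% for Mad2l1, 41.0% for Bub1, 42.3% for Bub3, 42.6% for Zwint, 43.0% for Ttk, 44.1% for Ndc80, 50.4% for Bub1b and 56.8% for Mad1l1, against a median of 49.9% over 13858 protein-coding genes tested. Of the 8, 6 lie in the lowest quartile of GC. From the lowest to the highest quartile, the median log2 fold change at 18 against 10 cycles was -0.84, -0.38, -0.09 and 0.78, while 1/8 oocytes relative to whole ones at 18 cycles had 0.61, 0.17, -0.14 and -0.90, both with median ratio size factors. Within the lowest quartile, the fold changes at 18 against 10 cycles were at percentile 58.5 for Bub3, 49.7 for Mad2l1, 41.6 for Ttk, 40.1 for Bub1, 24 for Zwint and 22 for Ndc80. Bub1b was at percentile 25.8 of the third quartile and Mad1l1 at 10.4 of the highest. In 1/8 against whole oocytes the percentiles ran from 52.8 for Bub3 to 90.9 for Mad1l1. The part of GC content in these fold changes was not tested.

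Other genes of the pathway were read from 3 lists. The checkpoint partners, regulators and targets of the checkpoint proteins, had 9 of 10 genes tested (Usp44 was not), the outer kinetochore 13 of 13 and the inner kinetochore 14 of 14. Here edgeR called 2 partners higher at 18 against 10 cycles and 3 lower, with a median log2 fold change of -0.30, where 12.3% of all genes were called higher and 10.8% lower. The highest was Mad2l2, the MAD2-like subunit of polymerase zeta, at 1.52 (adjusted p = 0.000271), then Cdc20, the activator that the checkpoint holds, at 1.07 (adjusted p = 0.00137). The lowest were Mad2l1bp, which encodes the p31comet adaptor that dismantles the checkpoint complex, at -2.38 (adjusted p = 0.000488) and Zwilch, an RZZ subunit, at -1.91 (adjusted p = 0.000711). Of the outer kinetochore 2 were called higher, Spc24 at 1.66 and Ska1 at 1.10 (not called with TMM, adjusted p = 0.0135), and 4 lower, with Ska2 at -2.63 and Cenpe at -1.55 the lowest, and the median was -0.44. Of the inner kinetochore 2 were called higher, Cenpa at 1.51 and Cenpm at 1.46, and 5 lower, with Cenpq at -2.63 and Cenpk at -1.85 the lowest, and the median was -0.71. With median ratio size factors the 3 lists thus held genes called in both directions, while the 4 called among the 8 checkpoint genes were all lower. The oocyte markers given below were likewise called in 1 direction only, with 9 of 11 lower and 0 higher. Scaled by ERCC, edgeR called 5 partners, 8 outer and 6 inner genes higher, and 2 of the 8 checkpoint genes. It called 0 lower in each, and over all genes 8348 of 17532 higher and 0 lower. Whether the lists differ was not tested. With ERCC size factors the 6 called higher by median ratio stayed higher, from 3.30 for Cdc20 to 3.96 for Spc24. Zwilch, Cenpe and Cenpk flipped to 0.32, 0.55 and 0.37, and Mad2l1bp, Ska2 and Cenpq kept a negative sign at -0.12, -0.42 and -0.38. None of these named lower genes was called there (edgeR adjusted p from 0.285 to 0.866). The sign for Zwilch is not settled, since its mean was 16.9 per 1000 ERCC counts at both 18 and 10 cycles. By the calls with median ratio size factors, the median GC content was 54.2% for the 6 called higher, 43.7% for the 12 called lower and 45% for the 18 not called.

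Spc24, which encodes a subunit of the NDC80 complex, was the 1 subunit gene of that complex called in the other direction from Ndc80 with median ratio size factors. It was at 59.1 and 63.4 CPM at 10 cycles, 66.8 and 77.6 at 14, 198 and 127 at 18, 138 and 123 in 1/2, 132 and 140 in 1/4, and 91.0 and 64.6 in 1/8. Cenpq, an inner kinetochore gene, was at 118 and 143 CPM at 10 cycles, 110 and 112 at 14, 20.2 and 14.7 at 18, 43.7 and 48.4 in 1/2, 43.7 and 62.2 in 1/4, and 130 and 183 in 1/8. In CPM, Spc24 was thus higher at 18 than at 10 cycles where Ndc80 and Cenpq were lower, with no overlap for any of the 3. The other 2 subunit genes of the complex, named here after their values were seen, were not called at 18 against 10 cycles with median ratio size factors: Nuf2 had a log2 fold change of -0.24 (adjusted p = 0.326), and Spc25 of 0.44 (adjusted p = 0.195). With ERCC size factors edgeR called Spc25 higher, at 2.75 (adjusted p = 3.57e-05), where 8348 of all 17532 genes were called higher.

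The lists in the other comparisons can be given briefly. Between 14 and 10 cycles edgeR called 0 genes of the 3 lists, with 0 at an unadjusted p under 0.05 and 0 by DESeq2, and medians of -0.12, 0.03 and -0.03 for partners, outer and inner kinetochore. At 18 against 14 cycles it called 2 partners higher and 3 lower, 1 outer gene higher (Spc24, 1.46) and 1 lower (Mis12, -0.96), and 2 inner genes higher and 4 lower, with medians of -0.19, -0.47 and -0.63 (12.5% of all genes higher and 10.7% lower). Scaled by ERCC, it called 6, 9 and 7 genes of the lists higher and 0 lower, and over all genes 8398 of 17532 higher and 2 lower. In 1/2 against whole oocytes with median ratio size factors edgeR called 0 in each list, with 1, 3 and 5 at an unadjusted p under 0.05 and 0, 0 and 1 by DESeq2, and medians of 0.16, 0.48 and 0.61. In 1/4 it called 0 in each, with 2, 1 and 3 at an unadjusted p under 0.05 and 0, 0 and 1 by DESeq2, and medians of 0.29, 0.19 and 0.28. In 1/8 it called 2 partners higher (Mad2l1bp at 2.50 and Zwilch at 1.86) and 0 lower, 1 outer gene higher (Cenpe, 1.45) and 1 lower (Spc24, -1.24), and 6 inner genes higher (led by Cenpq at 2.95 and Cenpk at 2.03) and 1 lower (Cenpm, -1.41), with medians of 0.42, 0.60 and 0.81 (7.06% of all genes higher and 8.69% lower). Between 1/4 and 1/2 edgeR called 0 in each list, with 1, 1 and 2 at an unadjusted p under 0.05, 0 by DESeq2 and medians of 0.13, -0.25 and -0.38. Between 1/8 and 1/4 it called 3 inner kinetochore genes higher, led by Cenpk at 1.53 and Cenpq at 1.50, and 0 in the other lists (3 partners and 4 outer genes at an unadjusted p under 0.05, 0 by DESeq2), with medians of 0.17, 0.28 and 0.52 (1.54% of all genes higher). With ERCC size factors 7, 7 and 5 genes were called lower in 1/2, 8, 12 and 12 in 1/4, and 9, 13 and 14 in 1/8, where 52.0%, 69.7% and 87.5% of all genes were. Among those called with a mean of at least 50 normalized counts, the 2 lowest of each list in 1/2 were Zw10 (-2.52), Trip13 (-2.46), Spc24 (-2.38), Cenpt (-2.31), Cenpa (-1.91) and Ska3 (-1.83). The 2 lowest of each list in 1/8, chosen alike, were Cenpm (-6.43), Spc24 (-6.26), Mad2l2 (-6.07), Cdc20 (-5.73), Cenpa (-5.62) and Spc25 (-5.35).

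Over the 12 libraries, log2(CPM + 1) of the checkpoint genes correlated positively in 28 of 28 pairs, from a Pearson r of 0.633 for Mad2l1 and Bub1b to 0.952 for Zwint and Ndc80 (n = 12). This is a description only, since fractions share oocytes and depth differs between groups. Among 8272 other protein-coding genes, the 2 most alike in pattern were Tpmt (r = 0.977) and Prpf38a (0.971) for Mad2l1, and Dynlt3 (0.967) and Slc26a6 (0.959) for Mad1l1. For the BUB genes they were Mpp5 (0.981) and Rpgrip1 (0.980) for Bub1, Fam13c (0.992) and Pes1 (0.990) for Bub1b, and Nsrp1 (0.976) and Psmc5 (0.975) for Bub3. They were Dnajc7 (0.991) and Cdc27 (0.983) for Ttk, Stat6 (0.981) and Nectin3 (0.981) for Zwint, and Lama4 (0.982) and Acot11 (0.981) for Ndc80. The median r with all 8272 genes lay between 0.159 for Bub3 and 0.233 for Mad1l1.

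Promoter sequence is a feature that the choice of the genes did not use. RefSeq promoters (GRCm38.p6, 250 bases before to 50 after the start) were available for 8 of 8 genes, as 10 promoters because Bub3 and Mad1l1 have 2 each. They were searched on both strands for TTTGAA (reverse complement TTCAAA), the core of the cell cycle genes homology region known from promoters of genes expressed late in the cell cycle, and for CCAAT, a common promoter box whose reverse complement is ATTGG. The match TTTGAA was present for 4 of 8 genes, Bub1b, Bub3, Ndc80 and Ttk, and in 17.9% of all 32851 promoters of this length. CCAAT was present for 5 of 8, Bub1, Bub1b, Bub3, Ttk and Zwint, and in 37.4% of all promoters. These counts are per gene and the shares per promoter, so the measures are unlike. A gene with 2 promoters has more room for a match, and the 2 promoters of Bub3 hold the same matches. A match describes the letters only. The windows below show the TTTGAA matches and, for Bub1 and Zwint, a CCAAT match, as examples of the letters that several of these genes share. Capitals mark the match, in its forward or reverse form, and each window reads 5′ to 3′ on the gene's strand: Bub1b chr2:118598231-118598260 (plus), Bub3 chr7:131560315-131560344 (plus), Ndc80 chr17:71526811-71526840 (minus), Ttk chr9:83834684-83834713 (plus), Bub1 chr2:127831884-127831913 (minus) and Zwint chr10:72654797-72654826 (plus).
Bub1b: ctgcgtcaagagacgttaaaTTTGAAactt
Bub3: gagccgttggcgTTCAAAatcagccaatga
Ndc80: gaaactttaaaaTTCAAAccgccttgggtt
Ttk: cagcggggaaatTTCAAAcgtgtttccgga
Bub1: ccgcagcggagaCCAATagtcaggcgcgct
Zwint: aatcgactccggCCAATgaaaagaggtgac

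The label of an oocyte was checked with 11 oocyte markers (Zp1, Zp2, Zp3, Gdf9, Bmp15, Oosp1, Nlrp5, Ooep, Figla, Mos and Kit), and all 11 had counts in 12 of 12 libraries. Their summed level was 24794 and 22111 CPM at 10 cycles, 24214 and 25821 at 14, 7365 and 6218 at 18, 9482 and 9021 in 1/2, 13345 and 14479 in 1/4, then 20521 and 19961 in 1/8, with Gdf9 the most abundant in 10 libraries and Ooep in 2. The summed markers thus ordered the groups much as the summed checkpoint genes did, lowest in whole oocytes at 18 cycles. This did not hold for each marker: Zp2, Bmp15, Nlrp5 and Kit had their lowest mean in 1/2, and Figla in 1/8. At 18 against 10 cycles edgeR called 9 of 11 markers lower (median log2 fold change -1.44; with ERCC size factors 3 higher, 0 lower and a median of 0.79), at 18 against 14 cycles 10 lower (median -1.49; with ERCC size factors 2 higher, 0 lower and a median of 0.79), and in 1/8 against whole oocytes 7 higher (median 1.13; with ERCC size factors 11 lower and a median of -3.81). Over all genes edgeR called 10.8% and 10.7% lower and 7.06% higher in these comparisons. In 1/2 and 1/4 it called 0, with 3 and 7 at an unadjusted p under 0.05 and 1 and 4 by DESeq2. In 1/8 against 1/4 it called 2 higher.

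Each library held 1 oocyte or a share of 1 with any cells still attached, so fewer attached cells and less RNA per cell cannot be told apart for transcripts from both. The summed level of 10 granulosa cell markers was 126 and 73.1 CPM at 10 cycles, 90.4 and 134.9 at 14, 59.0 and 24.6 at 18, 32.1 and 30.3 in 1/2, 55.4 and 52.5 in 1/4, then 77.0 and 65.2 in 1/8, with from 4 to 10 of the 10 detected. Nr5a2 was the most abundant except in 1/8, where it was Cyp19a1. Of the 8 tested, edgeR called 1 lower at 18 against 10 cycles and at 18 against 14 cycles 2, and in 1/8 against whole oocytes 1 of 6 higher, Cyp19a1 at 2.34. The other tested markers in 1/8 mostly had negative signs, down to -4.54 for Inha, and the median of the 6 was -1.72. Scaled by ERCC, the calls were 0, 1 higher and 6 of 6 lower, where over all genes 8348 and 8398 of 17532 were called higher and 87.5% lower. Of 5 blood cell markers, the summed level was at most 5.86 CPM, with Lyz2 the most abundant there, and all 5 were at 0 in replicate 2 at 18 cycles and in the 6 fraction libraries. The part of these markers in the levels of the checkpoint genes was not tested.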

How the data were processed

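The gene counts are those deposited by the authors, made without regard to strand. According to the submitters' processing notes, reads were trimmed with cutadapt 2.5, mapped with STAR 2.7.2a to mm10 with the ERCC sequences and counted with HTSeq 0.9.1. The paper's methods give other versions. Of 55573 identifiers, 55480 were found in GENCODE M21. Reads on no feature made up 6.90% to 10.8%. Mad1l1 shares 37 exon bases with an antisense gene, Gm16121. Reads carry no molecular identifiers.

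A gene entered a fit when 2 or more of its libraries had at least 5 counts. Whole oocytes (3 groups) and the libraries at 18 cycles (4 groups) were fitted separately with edgeR 4.0.16 (quasi-likelihood, Benjamini-Hochberg over all genes kept, adjusted p under 0.01), with size factors by the median ratio over genes or over ERCC molecules, in R 4.3.3. DESeq2 1.42.0 was an alternative. Levels were computed in Python 3.11.15 with pandas 2.3.3 and numpy 2.4.6. The SE is the absolute log2 fold change over the square root of F. The p-values measure spread between libraries: between replicates, the chi-square per degree of freedom for counting error alone was 16.7 at 10 cycles, 12.9 at 14, 15.3 at 18, 16.3 in 1/2, 10 in 1/4 and 13 in 1/8. The procedure was first tried on simulated counts.

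The 8 genes and the lists (checkpoint partners, outer and inner kinetochore, oocyte, granulosa and blood markers) were chosen with earlier results of these data known. All 8 are named in each comparison; of each pathway list, up to 2 genes in each direction with the largest absolute log2 fold change among those called with a mean of at least 50 normalized counts. Usp44, the single partner gene below the filter, was named beyond this rule. The most alike genes needed a mean of at least 10 CPM, as log2(CPM + 1).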

Additional observations from a re-analysis of the deposited data

How the results depend on the processing

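Between 14 and 10 cycles, and in 1/2, 1/4, 1/4 against 1/2 and 1/8 against 1/4 with median ratio size factors, the count of called checkpoint genes was 0 under each alternative run, except in 1/2 and 1/4 with another reference. At 18 against 10 and 14 cycles, where 4 were called, DESeq2 called 7 and 7 (2422 and 2401 of all 17532 genes lower), no filter 7 and 7 (2673 and 2710 of 28984), at least 10 counts in every library 8 and 8 (2042 and 2011 of 9073), and TMM 6 and 5 (2158 and 2094 of 17532), all lower. ERCC size factors called 2 and 1, all higher (8348 and 8398 of 17532), with log2 fold changes at 18 against 10 cycles of 1.50 for Mad2l1, 1.03 for Bub1, 1.69 for Bub3, 0.99 for Ttk, 0.32 for Zwint and 0.20 for Ndc80, and at 18 against 14 cycles of 1.21 for Bub1, 1.72 for Bub3, 1.12 for Ttk, 0.45 for Zwint and 0.67 for Ndc80. The replicate block, which pairs libraries by replicate number, called 6 at 18 against 10 cycles, 7 at 18 against 14 (2107 and 2111 of 17532 genes lower), 5 in 1/8 (1165 of 14788 higher), and with ERCC size factors 7 in 1/2 and 8 in 1/4 and 1/8 (8366, 10166 and 12684 lower). The numbers are not known to pair, and deviations of same-numbered libraries correlated between groups at -0.15 to 0.17 across genes, which are not independent. A fit of all 12 libraries called 8 in 1/2 with ERCC size factors (9176 of 18041 genes lower). With whole oocytes at 10 cycles as the reference the counts were 3 in 1/2, 2 in 1/4 and 0 in 1/8 with median ratio size factors, and 0 in 1/2, 4 in 1/4 and 8 in 1/8 with ERCC size factors, all lower. Of all 18041 genes 1242, 752 and 0, then 384, 1399 and 13401 were lower, and 1678, 1050 and 0, then 1181, 157 and 0 higher. Among genes called with either reference, directions reversed for Bub1b (-0.97), Zwint (-1.52) and Ndc80 (-1.61) in 1/2, Zwint (-1.48) and Ndc80 (-1.34) in 1/4, Bub1 (-0.11) and Zwint (-0.39) in 1/8, and Bub3 in 1/2 with ERCC size factors (0.27), and genes called with neither also changed sign. Over single genes, alternatives other than ERCC size factors and the 10-cycle reference reversed the direction of 0 called genes. The cause was not tested. With reads on no feature and ambiguous reads in the total, the summed level was 2297 CPM at 10 cycles, 2282 at 14, 1242 in 1/2, 1328 in 1/4 and 2210 in 1/8. With the 10 ERCC molecules that had at least 10 counts in every library, counts per 1000 ERCC counts were 963 at 10 cycles and 127 in 1/8.

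Leaving out 1 library at a time, a lone library being assumed to vary like the other groups, gave 0 to 0 called genes between 14 and 10 cycles, 2 to 6 at 18 against 10, 1 to 4 at 18 against 14, 0 to 0 in 1/2, in 1/4, in 1/4 against 1/2 and in 1/8 against 1/4, and 1 to 4 in 1/8. With ERCC size factors it gave 0 to 8 in 1/2, 4 to 8 in 1/4 and 8 to 8 in 1/8. In 1/8, where 4 were called, it was 1 and 2 without replicate 1 and 2 at 18 cycles, 2 and 1 without those of 1/8, and 2 without either of 1/4. In 1/2 with ERCC size factors, where 3 were called, it was 1 and 8 without replicate 1 and 2 at 18 cycles, 2 and 0 without those of 1/2, and 1 without either of 1/4. The summed level ranged from 2591 to 2705 CPM at 10 cycles, 2445 to 2833 at 14, 944 to 1152 at 18, 1392 to 1422 in 1/2, 1432 to 1581 in 1/4 and 2436 to 2548 in 1/8. Counts per 1000 ERCC counts ranged from 875 to 933 at 10 cycles, 865 to 982 at 14, 1334 to 1768 at 18, 489 to 611 in 1/2, 275 to 307 in 1/4 and 119 to 120 in 1/8. With 2 libraries per group, the ranges of these levels and counts are the values of the 2 libraries themselves. They are no further check.

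Depth limits the low genes most: at 18 cycles Mad1l1 had 73 and 17 counts, Zwint 41 and 24, and Ndc80 39 and 25. ERCC scaling at 18 cycles rests on 1611 and 1474 spike-in counts. With 2 libraries per group, a difference that misses the threshold is not shown to be absent.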
